A study of Homo sapiens with 3 samples.

Results

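The enzymes described here make, remodel and break down ceramide and its products. They are 10 of the 51136 genes in a count table from PANC-1 cells (a human line grown from a pancreatic carcinoma), and they were taken by symbol: SPHK1, SPHK2, SGPL1, ASAH1, SMPD1, CERS2, CERS5, CERS6, UGCG and SGMS1. The study examined how cantharidin acts on pancreatic cancer xenografts. It also asked whether other agents, among them those given here, could counter the growth-promoting effect of cantharidin. RNA was sequenced on an Ion Proton instrument from 3 cultures: an untreated control, cells given 200 µM Rg3 (Ginsenoside Rg3, a saponin of ginseng) for 24 h, and cells given 50 µM TAM (tamoxifen, an estrogen receptor ligand that is also used as a PKC inhibitor) for 24 h. The labels give no agent for the control and do not say whether it received the solvent.

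Each condition had 1 library, so no test between conditions could be made, and every interval below covers counting error only. The library totals lay between 11300766 and 12861693 counts. All 6 epithelial markers examined had counts in every library (summed counts 27560 in control, 15671 with Rg3 and 28112 with TAM). All 6 reached 10 counts in control and with Rg3, but only 4 did with TAM. KRT8 had the most counts of them in each library (15329, 7817 and 14411 in the same order). The 6 acinar and 5 islet markers were at 0 in all 3 libraries, so neither kind of normal pancreatic cell was detected. Among markers of endothelial cells, leukocytes and fibroblasts, 1 gene of each list reached 10 counts: KDR (49 to 54), CD14 (37 to 97) and COL1A1 (734 to 1853). In RNA from whole cultures, fewer cells that express a gene and less of its RNA per cell cannot be told apart.

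Ceramide, a sphingoid base joined to a fatty acid, stands at the centre of sphingolipid metabolism. Ceramide synthases (the CERS genes) form it on the endoplasmic reticulum, each preferring certain fatty acid lengths. It is then built into sphingomyelin or glucosylceramide, or is cleaved to sphingosine, which sphingosine kinases convert into sphingosine 1-phosphate. Ceramide is generally linked to growth arrest and cell death, and sphingosine 1-phosphate to survival, migration and angiogenesis. TAM is a cationic amphiphilic compound, a class known to accumulate in lysosomes and to disturb lysosomal sphingolipid enzymes.

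The enzymes differ in the base composition of their transcripts, and their differences between libraries were ordered by it. The GC content (the share of G and C bases) of the longest annotated transcript ran from 37.3% in ASAH1 to 65.5% in SPHK1. In coding sequence it was highest in SPHK2 (67.2%) and SPHK1 (65.1%) and lowest in UGCG (41.7%). To show this contrast, 90 bases from the middle of the longest coding exon of these 3 genes are printed 5′ to 3′ from the GRCh38 genome, with every G and C in capitals. The SPHK2 stretch is exon 5 at chr19:48629159-48629248 (plus strand) and holds 62 G or C bases, the SPHK1 stretch is exon 6 at chr17:76387150-76387239 (plus strand) and holds 57, and the UGCG stretch is exon 8 at chr9:111932220-111932309 (plus strand) and holds 35.
SPHK2: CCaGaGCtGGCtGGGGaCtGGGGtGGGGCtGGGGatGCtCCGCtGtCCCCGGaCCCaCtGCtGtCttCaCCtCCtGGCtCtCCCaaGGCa
SPHK1: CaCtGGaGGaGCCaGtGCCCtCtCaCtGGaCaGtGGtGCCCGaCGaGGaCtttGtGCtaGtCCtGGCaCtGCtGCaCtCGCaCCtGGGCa
UGCG: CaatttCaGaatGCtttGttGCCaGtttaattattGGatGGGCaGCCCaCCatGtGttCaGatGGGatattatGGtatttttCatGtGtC
At the third position of codons, where many base changes leave the protein the same, the GC content was 76.0% in SPHK1, 73.8% in SPHK2 and 39.8% in UGCG. ASAH1, the lowest in GC content over the longest transcript, had 42.7% in its coding sequence.

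Libraries were compared at genes that reached 10 counts in at least 1 of the pair, and each of the 10 enzymes passed in every comparison. Libraries were scaled with TMM (trimmed mean of M-values), which sets the bulk of genes as equal, and a gene was called higher at a fold above 1.5 and lower at a fold below 0.67. With Rg3, 4 enzymes were called higher than control (ASAH1, CERS6, UGCG and SGMS1) and 1 was called lower (SPHK2). Over all 16487 genes compared, 25.0% were called higher and 19.5% lower. With TAM, 2 enzymes were called higher (SPHK1 and SPHK2) and 3 lower (ASAH1, CERS6 and UGCG), where 17.4% of all 16079 genes were called higher and 23.8% lower. The median log2 fold change of the 10 enzymes was 0.28 with Rg3 and 0.15 with TAM, beside medians of 0.04 and −0.02 over all genes. Scaling by library totals kept the sign of all 10 enzymes and the same counts of calls in both comparisons. It moved every log2 fold change up by 0.14 for Rg3 and down by 0.21 for TAM, and the calls over all genes then split into 5180 higher and 2321 lower with Rg3 (4122 and 3223 with TMM) and into 1576 higher and 5259 lower with TAM (2799 and 3823 with TMM).

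**Figure D1:**
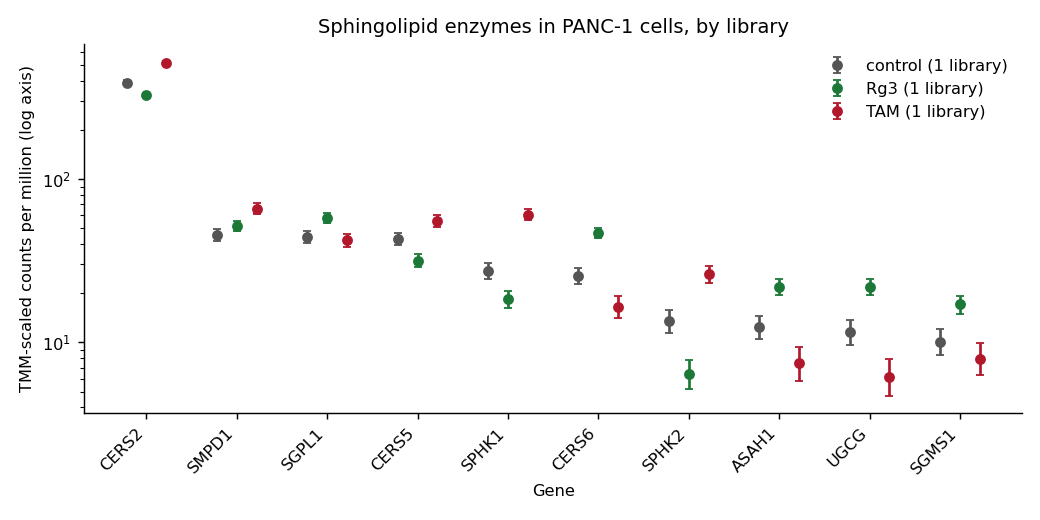
TMM-scaled CPM (counts on a common library size, log axis) of the 10 enzymes in the control, Rg3 and TAM libraries, 1 point per library, with 95% Poisson intervals for counting error. CERS2 lies far above the others in every library, and CERS6, ASAH1, UGCG and SGMS1 run from TAM (lowest) through control to Rg3 (highest), while SPHK1 and SPHK2 run the other way.

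Levels can be compared between genes only per length, here as TMM-scaled CPM (counts scaled to a common library size) per kilobase of the longest transcript. CERS2 was highest in each library (154 in control, 129 with Rg3 and 203 with TAM). In the control library it was followed by SMPD1 (18.6), CERS5 (14.4), SPHK1 (10.9) and SGPL1 (7.69), whose counting intervals did not overlap with those of their neighbours in this order. Below them SPHK2 (4.38), CERS6 (3.54), UGCG (2.87), SGMS1 (2.70) and ASAH1 (2.15) each overlapped with the next. CERS2 also led in each library when the mean length of a gene's transcripts was used, whereas the order of the others changed. The lowest of the 10 in the control library was then CERS6, at 3.63.

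The ceramide synthases join the sphingoid base to fatty acids, CERS2 mainly to very long ones and CERS5 and CERS6 mainly to shorter ones such as palmitate. CERS6 (chromosome 2, 168455862 to 168775137, plus strand, GRCh38) had 293 counts in control, 674 with Rg3 and 164 with TAM. The 3 levels did not overlap in their counting intervals, with Rg3 highest and TAM lowest. The log2 fold change was 0.88 with Rg3 (95% counting interval 0.68 to 1.08) and −0.63 with TAM (−0.92 to −0.35). The antisense gene CERS6-AS1, which overlaps it, was at 0 in every library. CERS2 (chromosome 1, 150960583 to 150975004, minus strand) had 4488, 4708 and 5147 counts in control, Rg3 and TAM. After scaling it was lower with Rg3 (log2 fold change −0.26) and higher with TAM (0.40), both short of the limits. Its exons overlap those of SETDB1 on the opposite strand (526, 508 and 416 counts), and the use of strand in counting is not given in the sources used here. CERS5 (chromosome 12, 50129306 to 50167533, minus strand) followed CERS2, with 494, 457 and 554 counts and log2 fold changes of −0.44 with Rg3 and 0.37 with TAM, neither called.

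Shares within a library need no scaling between libraries, but the relation of fold changes to GC content described below is not removed from them. The longest transcripts of CERS6 and CERS2, for example, differ in GC content (41.6% and 53.8%). CERS6 held 5.55% of the counts of the 3 synthases in control (exact binomial 95% interval 4.95 to 6.21), 11.5% with Rg3 (10.7 to 12.4) and 2.80% with TAM (2.39 to 3.25), so the 3 libraries were apart by more than counting error. CERS2 held 85.1%, 80.6% and 87.8% in the same order. CERS5 held 9.36% in control (8.59 to 10.2), 7.83% with Rg3 (7.15 to 8.55) and 9.45% with TAM (8.71 to 10.2). Its interval with Rg3 lay just below both others.

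UGCG and SGMS1 put the head groups on ceramide. UGCG, the glucosylceramide synthase that starts most glycosphingolipids (chromosome 9, 111896766 to 111935369, plus strand), had 132 counts in control, 314 with Rg3 and 61 with TAM. Its log2 fold change was 0.92 with Rg3 (0.63 to 1.23), the highest of the 10 enzymes, and −0.91 with TAM (−1.37 to −0.46), the lowest. SGMS1, the Golgi sphingomyelin synthase (chromosome 10, 50305586 to 50625163, minus strand), had 116, 246 and 79 counts. It was called higher with Rg3 (log2 fold change 0.76, 0.43 to 1.09), and with TAM its interval included 0 (−0.35, −0.78 to 0.08). Of the counts of both genes, UGCG held 53.2% in control (46.8 to 59.6), 56.1% with Rg3 (51.8 to 60.2) and 43.6% with TAM (35.2 to 52.2). The intervals of the control library overlapped with both others.

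ASAH1 and SMPD1 work in the lysosome, where acid sphingomyelinase (SMPD1) releases ceramide from sphingomyelin and acid ceramidase (ASAH1) cleaves ceramide to sphingosine. ASAH1 had 142 counts in control, 315 with Rg3 and 74 with TAM. Rg3 was again highest and TAM lowest, with log2 fold changes of 0.82 (0.53 to 1.12) and −0.73 (−1.16 to −0.32). SMPD1 (chromosome 11, 6390431 to 6394998, plus strand) had 523, 743 and 656 counts. It was not called in either library, at log2 fold changes of 0.18 with Rg3 (0.02 to 0.34) and 0.53 with TAM (0.37 to 0.70). ASAH1 held 21.4% of the counts of both lysosomal enzymes in control (18.3 to 24.7), 29.8% with Rg3 (27.0 to 32.6) and 10.1% with TAM (8.04 to 12.6).

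**Figure D2:**
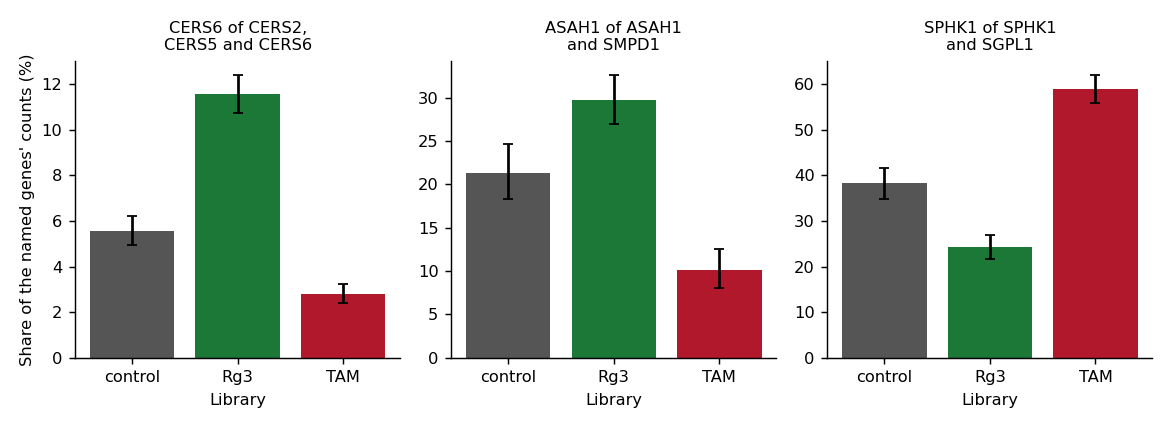
Share (%) of the named genes' counts in the control, Rg3 and TAM libraries, 1 bar per library, with exact binomial 95% intervals for counting error. CERS6 and ASAH1 take their largest shares with Rg3 and their smallest with TAM, and SPHK1 takes 59.0% of the SPHK1 and SGPL1 counts with TAM and 24.2% with Rg3. The genes within each share differ in GC content, and the shares are not adjusted for it.

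SPHK1 and SPHK2 phosphorylate sphingosine, and SGPL1 cleaves the product irreversibly. SPHK1, the mainly cytosolic kinase (chromosome 17, 76376584 to 76387860, plus strand), had 314 counts in control, 265 with Rg3 and 603 with TAM. TAM was highest and Rg3 lowest, and the 3 levels did not overlap in their counting intervals. With TAM the log2 fold change was 1.15 (0.95 to 1.35), the highest of the 10. With Rg3 it was −0.57 (−0.81 to −0.33), a fold of 0.673 that fell just short of the limit. When TMM was computed over genes with at least 10 counts, the fold was 0.6696 and SPHK1 was called lower. SPHK2, the mainly nuclear and mitochondrial kinase (chromosome 19, 48619291 to 48630717, plus strand), had 155, 92 and 260 counts, with log2 fold changes of −1.08 with Rg3 (−1.47 to −0.70) and 0.95 with TAM (0.66 to 1.25). Its exons overlap those of DBP and of RPL18 on the opposite strand, and RPL18 had 9544, 8397 and 12447 counts, so the SPHK2 counts are uncertain if strand was not used. The same holds for SPHK1, whose exons overlap those of PRPSAP1 on the opposite strand (735, 892 and 681 counts).

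SGPL1, the sphingosine 1-phosphate lyase of the endoplasmic reticulum (chromosome 10, 70815961 to 70881173, plus strand), had 507 counts in control, 830 with Rg3 and 419 with TAM. The log2 fold change was 0.38 with Rg3 (0.22 to 0.55) and −0.07 with TAM (−0.26 to 0.12), neither called. Set against the lyase, SPHK1 held 38.2% of the counts of both genes in control (34.9 to 41.7), 24.2% with Rg3 (21.7 to 26.9) and 59.0% with TAM (55.9 to 62.0). The transcripts of SPHK1 and SGPL1 differ in GC content (65.5% and 47.2%). With the trend removed, SPHK1 was at 0.18 and SGPL1 at 0.25 with Rg3, and at 0.53 and 0.25 with TAM. SPHK1 and SPHK2 kept closer proportions, with SPHK1 at 67.0%, 74.2% and 69.9% of their joint counts. The ratio of SPHK1 to UGCG needs no scaling either. These genes were picked as the highest and lowest log2 fold changes with TAM, so a higher ratio with TAM follows from that choice. They also differ in the GC content of their longest transcripts (65.5% and 40.9%), which the ratio leaves in place. There were 2.38 SPHK1 counts per UGCG count in control (1.94 to 2.94), 0.844 with Rg3 (0.714 to 0.997) and 9.89 with TAM (7.59 to 13.1).

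More enzymes were called between the libraries of both agents than between either and control, and the same held for all genes. Of these, 10793 of 16493 were called between TAM and Rg3, 7345 of 16487 with Rg3 and 6622 of 16079 with TAM. The doses differ (50 µM TAM and 200 µM Rg3), and the 2 comparisons with control share its library. With TAM, 4 enzymes were called higher than with Rg3 (SPHK1, SPHK2, CERS2 and CERS5) and 4 lower (ASAH1, CERS6, UGCG and SGMS1), where 30.0% of all 16493 genes were called higher and 35.4% lower. SPHK2 had the highest log2 fold change (2.03, 1.68 to 2.39) and UGCG the lowest (−1.83, −2.25 to −1.43). The calls of CERS2 (0.66) and CERS5 (0.81) depended on the scaling. With library totals, which shift the comparison by 0.35, neither was called, SGPL1 was called lower (−0.80), and the calls over all genes split into 3105 higher and 7499 lower (4950 and 5843 with TMM).

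**Figure D3:**
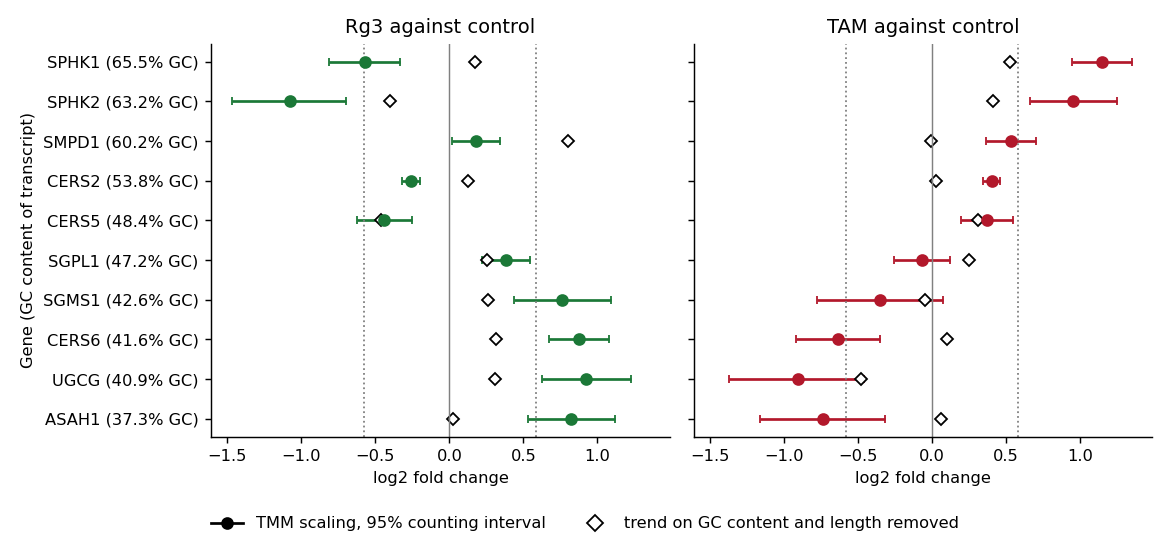
log2 fold change against control (x axis) of the 10 enzymes, ordered by the GC content of their longest transcript (y axis), for Rg3 on the left and TAM on the right. Filled points are TMM-scaled values with 95% counting intervals, open diamonds are values after a trend on GC content and length was removed, and dotted lines mark the limits for a call. Filled points run from higher to lower with rising GC content with Rg3 and from lower to higher with TAM, and most diamonds lie nearer to 0.

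The order of these changes followed GC content in opposite directions with both agents. Across the 10 enzymes, Spearman's rank correlation between the log2 fold change and the GC content of the longest transcript was −0.90 with Rg3 and 0.99 with TAM. The enzymes are measured in the same libraries, so these values describe those libraries. The same relation held over all genes with at least 50 counts, with rank correlations of −0.81 with Rg3 (11586 genes) and 0.51 with TAM (11025 genes). In genes of 34% to 36% GC the median log2 fold change was 0.91 with Rg3 and −0.49 with TAM, and in genes of 66% to 68% GC it was −0.75 and 0.45.

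Each enzyme was therefore also set beside the median of all genes within 2 percentage points of its GC content. For ASAH1 the medians were 0.80 with Rg3 and −0.57 with TAM, close to its own values of 0.82 and −0.73. For CERS6 they were 0.60 and −0.38, for UGCG 0.65 and −0.43, and for SGMS1 0.54 and −0.33. These 4 genes thus lay on the same side of 0 as the genes of like composition in both libraries. The medians beside SPHK1 were −0.67 with Rg3, further from 0 than its own −0.57, and 0.47 with TAM, against its own 1.15. Beside SPHK2 they were −0.63 and 0.43, and its own values of −1.08 and 0.95 lay further out in both libraries. SMPD1 went against the genes of like composition with Rg3, where their median was −0.56 and its own log2 fold change 0.18. CERS5, at −0.44 with Rg3 and 0.37 with TAM, also had the opposite sign from its medians of 0.09 and −0.06.

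With a smooth trend on GC content and transcript length removed, 1 of the 10 enzymes was called with Rg3, and none was called with TAM. The enzyme called was SMPD1, higher with Rg3 at a log2 fold change of 0.80. Over all 14282 genes with an annotated transcript, 9.76% were then called higher and 9.26% lower with Rg3, and of 14022 with TAM 11.9% were higher and 17.6% lower. The calls of ASAH1 (0.02 with Rg3 and 0.06 with TAM), CERS6 (0.31 and 0.10), UGCG (0.31 and −0.48), SGMS1 (0.26 with Rg3) and SPHK2 (−0.40 and 0.41) were lost. SPHK1 with TAM, at 0.53, was the enzyme nearest to the limit in that library, and with Rg3 it changed sign to 0.18. Between TAM and Rg3, 2 enzymes were then called higher (SPHK2 at 0.81 and CERS5 at 0.78) and 2 lower (SMPD1 at −0.82 and UGCG at −0.77). The call of SMPD1 appeared with this step, with its sign turned from 0.35, and the other 3 enzymes had the same direction as before. These counts stand beside 16.4% of all genes called higher and 22.9% lower. The part of base composition in the differences of these enzymes was not tested, since with 1 library per condition a treatment and the preparation of its library cannot be told apart.

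**Figure D4:**
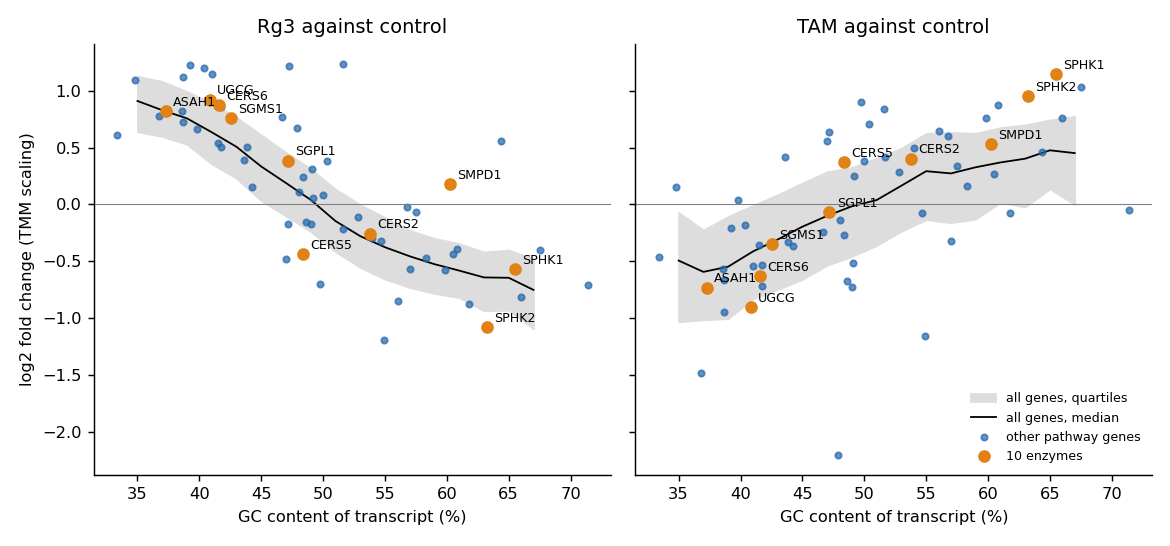
log2 fold change against control (TMM scaling, y axis) against the GC content of the longest transcript (%, x axis), with Rg3 on the left and TAM on the right. Orange points are the 10 enzymes, blue points the other pathway genes, the black line is the median of all genes in steps of 2 percentage points of GC content and the grey band their quartiles. Most of the enzymes follow the line, and SPHK2, SMPD1, CERS5 and UGCG with Rg3 and SPHK1, SPHK2, CERS5 and UGCG with TAM lie outside the quartiles of their step.

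Promoters were read from RefSeq on GRCh38.p14, which gave 11 promoters for 8 of the 10 enzymes. ASAH1 and CERS2 were not matched. Shown here are the 250 bases before the start of UGCG at chr9:111896564-111896813 (plus strand, 78.4% GC) and before the third annotated start of SPHK1 at chr17:76385028-76385277 (plus strand, 66.4% GC). The genes were taken as the furthest apart with TAM. Of the 3 annotated starts of SPHK1, the one shown is the only one with an AP-1 match and the only one without a GC box. Capitals mark matches on either strand to the GC box GGGCGG in UGCG and to the AP-1 motif TGANTCA in SPHK1.
UGCG promoter: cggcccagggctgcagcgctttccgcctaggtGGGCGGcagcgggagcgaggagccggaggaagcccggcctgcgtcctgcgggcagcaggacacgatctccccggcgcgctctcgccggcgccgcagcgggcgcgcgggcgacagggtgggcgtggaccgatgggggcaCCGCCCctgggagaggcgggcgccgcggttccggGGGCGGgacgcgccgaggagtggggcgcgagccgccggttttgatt
SPHK1 promoter: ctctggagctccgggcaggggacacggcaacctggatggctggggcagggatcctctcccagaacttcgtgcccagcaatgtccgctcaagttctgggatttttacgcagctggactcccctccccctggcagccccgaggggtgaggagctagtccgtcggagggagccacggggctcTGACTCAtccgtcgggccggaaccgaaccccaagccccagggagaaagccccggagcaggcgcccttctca
UGCG thus had 3 GC boxes, and 42.6% of all 35116 promoters held at least 1. Of the other enzymes, SMPD1 had 6, CERS5 5, CERS6 3, SGMS1 2, SGPL1 1, and SPHK2 0 or 1 depending on the start. The SPHK1 window held no GC box and 1 match to the AP-1 motif, the only such match in the 11 promoters searched. Of all promoters, 6.57% held the motif, and whether the enzymes differ from that share was not tested. The E-box CACGTG (6.34% of promoters) and the sterol regulatory element (0.125%), searched as its consensus on both strands, were in no promoter of the enzymes. The other SPHK1 promoters had 72.4% GC with 1 GC box and 80.8% GC with 2, so whether SPHK1 or UGCG had the promoter richer in GC depended on the start.

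The other genes of the pathway showed no single direction. Of 62 further genes listed by role, all were in the table, 13 had fewer than 10 counts in every library, and 49 were compared. With Rg3, 15 were called higher and 6 lower (median log2 fold change 0.11), and with TAM 10 were higher and 8 lower (median −0.07). With library totals these counts were 19 and 4 with Rg3 and 4 and 13 with TAM. Over all genes, library totals gave 31.4% higher and 14.1% lower with Rg3, and 9.80% and 32.7% with TAM. The rank correlation with GC content was −0.76 with Rg3 and 0.58 with TAM over the 49 genes. With the trend removed, the calls with Rg3 fell to 5 genes above control and 3 below it, and those with TAM to 4 and 6. All genes were then called at 9.76% higher and 9.26% lower with Rg3, and at 11.9% and 17.6% with TAM.

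The counts by role are small and depended on the scaling, as did the shares over all genes. With TMM all genes were called at 25.0% higher and 19.5% lower with Rg3 and at 17.4% and 23.8% with TAM. With library totals those shares were 31.4% and 14.1% with Rg3, and 9.80% and 32.7% with TAM. By role, 10 genes of de novo ceramide synthesis were compared, of which Rg3 gave 3 higher and 1 lower, and TAM 1 and 1 (5 and 0, and 0 and 1, with library totals). Of 12 genes of ceramide transfer and head groups, 5 were higher and 1 lower with Rg3, against 1 and 1 with TAM (5 and 1, and 1 and 5, with library totals). Of 17 genes of sphingolipid breakdown, 5 were higher and 2 lower with Rg3, against 5 and 4 with TAM (6 and 2, and 2 and 4, with library totals). Of 10 genes for turnover, export and receptors of sphingosine 1-phosphate, 2 were higher and 2 lower with Rg3, against 3 and 2 with TAM (3 and 1, and 1 and 3, with library totals). After removal of the trend, 0 of the 10 genes of de novo synthesis were called with either agent. Of the 12 for ceramide transfer and head groups, 0 were called with Rg3, and 0 were higher and 2 lower with TAM. Over all genes, 9.76% were then called higher and 9.26% lower with Rg3, and 11.9% and 17.6% with TAM.

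**Figure D5:**
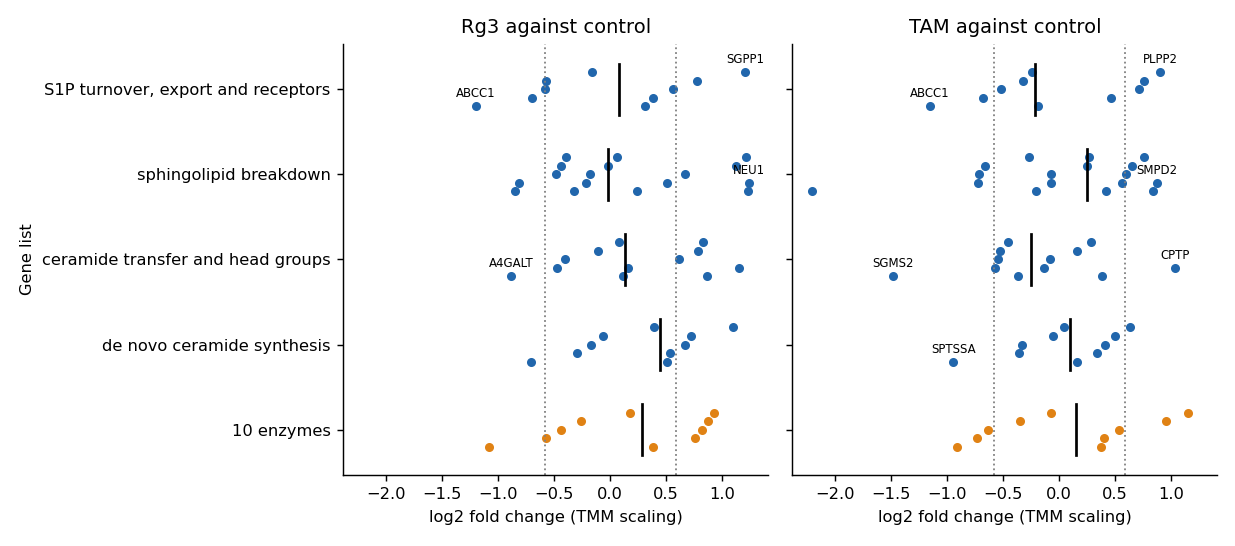
log2 fold change against control (TMM scaling, x axis) of the 10 enzymes (orange) and the other pathway genes by role (blue), with Rg3 on the left and TAM on the right. Each point is 1 gene, vertical bars are medians, dotted lines mark the limits for a call, and pathway genes described in the text as the highest or lowest called are named. Each role has genes on both sides of 0.

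The highest log2 fold change with Rg3 among the other pathway genes was in lysosomal breakdown. NEU1, the lysosomal sialidase, had 531 counts in control, 1574 with Rg3 and 823 with TAM. Its log2 fold change of 1.24 with Rg3 was 1.47 after removal of the trend, and with TAM it was 0.84 by both measures.

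Sphingosine 1-phosphate is also removed by phosphatases and carried out of cells by exporters. SGPP1, a phosphatase for it, had 80 counts in control, 231 with Rg3 and 61 with TAM, a log2 fold change of 1.20 with Rg3 (0.58 with the trend removed). ABCC1, a transporter known to export it along with many drugs, had 13179, 7203 and 5131 counts. It was called lower with both agents, at −1.20 with Rg3 and −1.15 with TAM, and remained so with the trend removed (−0.79 and −1.14), in comparisons that share the control library. PLPP2, a phosphatase of lipid phosphates, had 724, 559 and 1171 counts, with log2 fold changes of −0.70 with Rg3 and 0.90 with TAM (−0.62 and 1.18 with the trend removed). The trend uses the longest transcript, of 6455 bases in PLPP2 and 4616 in NEU1, where the means over their transcripts were 1640.2 and 2687.5. Whether the longest transcripts are the ones expressed here was not tested.

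The next 5 genes were named as among the highest or lowest called with TAM or Rg3, and they have different roles. With TAM, 1 of 10 genes compared for de novo ceramide synthesis was called higher and 1 lower. Of 12 for ceramide transfer and head groups, 1 was higher and 1 lower. Over all genes, 17.4% were called higher with TAM and 23.8% lower. SGMS2, the sphingomyelin synthase of the plasma membrane, had 58 counts in control, 125 with Rg3 and 18 with TAM, and its log2 fold change with TAM was −1.48 (−2.33 to −0.70 in its counting interval, −0.66 with the trend removed). SPTSSA, a small subunit of serine palmitoyltransferase, had 302, 626 and 136 counts, at −0.94 with TAM (−0.51 with the trend removed). CPTP, which carries ceramide 1-phosphate between membranes, had 378, 358 and 673 counts, at 1.04 with TAM (0.39). SMPD2, a neutral sphingomyelinase, had 543, 519 and 862 counts, at 0.87 with TAM (0.24). A4GALT, which makes globotriaosylceramide, had 301, 205 and 247 counts, at −0.88 with Rg3 (−0.22). For the agent named with each of these 5 genes, SGMS2 was still called after removal of the trend and the other 4 were not. ACER2, an alkaline ceramidase, had the lowest log2 fold change of the 49 genes with TAM (−2.21), but it rests on 16 counts in control and 2 with TAM and was named after its values were seen.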

How the data were processed

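RNA-seq libraries of PANC-1 cells (control, Rg3 and TAM, 1 each) were grouped by their labels. The authors checked reads with FAST-QC and aligned them with TopHat, and deposited raw counts per gene symbol. The labels name GRCh38, and the counting tool, annotation and strand setting are not given in the sources used here. From the deposited counts, log2 fold changes were computed with TMM factors of edgeR 4.0.16 (1.02 for control, 1.12 for Rg3 and 0.879 for TAM). Counts under 3 were raised to 3. Genes reaching 10 counts in at least 1 library of a pair were compared and called by fold alone, because no replicates exist. Intervals are exact 95% binomial (Clopper-Pearson) or Poisson intervals. The limma fit named in the study's methods needs replicates and could not be made.

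GC content and length came from the longest GENCODE 29 transcript, found for 86.6% (Rg3) and 87.2% (TAM) of compared genes, and a loess trend (span 0.3) on both was removed as an alternative. Other alternatives were library totals, DESeq2 1.42.0 size factors, count minimums of 1 and 50, folds of 2 and 0.5, and mean transcript length. The steps were tested on simulated data. The enzymes and gene lists were chosen with earlier results of these data known. Besides the 10 enzymes, the text names the 3 highest and 3 lowest called pathway genes per agent with at least 50 counts, of which some are not reported here.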

Additional observations from a re-analysis of the deposited data

How the results depend on the processing

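All values rest on 1 library per condition, so counting intervals understate the spread between cultures. No paired analysis was possible because every group consists of 1 library. Of the 30 log2 fold changes of the enzymes (10 in each of 3 comparisons), all 30 moved by less than their counting interval with DESeq2 size factors and with TMM over genes with at least 10 counts, which was chosen after seeing the data, whereas 13 moved by more with library totals. With library totals the enzymes called higher between TAM and Rg3 numbered 2, and with TMM over genes with at least 10 counts those called lower with Rg3 numbered 2. Count minimums of 1 and 50 left the counts of enzymes called the same.

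After removal of the GC content and length trend, the sign changed in 10 of the 30 log2 fold changes, 6 of them not called with TMM and 4 called: with TAM against control ASAH1 (0.062) and CERS6 (0.10), and with TAM against Rg3 ASAH1 (0.073) and CERS2 (−0.10). The enzymes called were then 1 with Rg3 (1 higher and 0 lower), 0 with TAM (0 higher and 0 lower) and 4 between TAM and Rg3 (2 higher and 2 lower). Of the 49 pathway genes compared, 8, 10 and 12 were called in the same order of comparisons. Over all genes, 2716 of 14282, 4144 of 14022 and 5609 of 14272 were called.

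With folds over 2 or under 0.5, 1 enzyme was called with Rg3 (0 higher and 1 lower) and 1 with TAM (1 higher and 0 lower). Between TAM and Rg3, 6 were called (2 higher and 4 lower). Of the 49 pathway genes compared, 8, 4 and 20 were called in the same order. Over all genes, 2619 of 16487, 2686 of 16079 and 6779 of 16493 were called. The stricter fold leaves fewer calls by construction, and for the other settings the cause was not tested.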
